A study of Mus musculus with 15 samples.

Results

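Lysosomal cathepsins and legumain are the proteases that digest protein inside lysosomes, and 10 of their genes were described here across 3 diets: Ctsb, Ctsc, Ctsh, Ctsk, Ctsl, Ctss, Ctsz, Ctsd, Ctsa and Lgmn. They were chosen by name, with earlier results of these data known. They are 10 of the 18193 genes that the arrays named, and for each the brightest probe set over all arrays was used. All 10 passed the filter on dim genes. The samples were foam cells, which are macrophages filled with lipid, cut by laser from lesions of the aortic sinus and measured on 15 arrays, 5 per group. Every mouse, controls included, was of strain C57BL/6 and lacked apolipoprotein E (ApoE-/-), a deletion that raises blood cholesterol and gives lesions on regular chow too. The CHOW group ate regular chow to an age of 22 weeks. The 14w-WD group ate chow for 8 weeks and then a western-type diet for 14 weeks, up to week 22. The 2w-WD group received that diet for 2 weeks only, after 20 weeks of chow per the sample labels but between weeks 22 and 24 per the series text, so its age is uncertain. Sex and the number of animals behind each array are not given in the labels.

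Cathepsins are made as inactive proenzymes, carried to the lysosome by mannose 6-phosphate receptors and activated there by cleavage. Most are cysteine proteases of the papain family, whereas cathepsin D is an aspartic protease, cathepsin A a serine carboxypeptidase and legumain a cysteine protease that cuts after asparagine. In lesional macrophages they degrade the protein of engulfed lipoproteins and dead cells and prepare antigens, and some are secreted and cut elastin and collagen of the vessel wall.

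For these genes the differences past the threshold lay between long and short feeding. Lgmn, Ctsk, Ctsl, Ctsd and Ctsb were higher in 14w-WD than in 2w-WD, by 4.18-fold, 2.11-fold, 1.46-fold, 1.46-fold and 1.21-fold, and no member was lower. Ctsz, Ctsa, Ctsc, Ctss and Ctsh did not pass the test. All 10 mean differences were above 0, beside 65.2% of all genes. A gene was called where limma's p, adjusted by Benjamini-Hochberg over 11925 genes, was under 0.05, and 10.1% of all genes were called higher by that rule and 1.15% lower. Neither diet group differed from CHOW in any of the 10 genes at this threshold.

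The stretches upstream of the start sites are shown because the master regulator of lysosomal genes, TFEB, is known to bind E-boxes with the core CACGTG, and because 3 of the 4 called genes with a window (Lgmn, Ctsl, Ctsd and Ctsk) hold that core there. They are the 250 bases before the annotated start, from RefSeq in build GRCm38.p6, written 5′ to 3′ on the gene's strand. Capitals mark each CACGTG, a palindrome, so that both strands were searched at once. Lgmn lies at chr12:102439093-102439342 on the minus strand, Ctsl at chr13:64370521-64370770 on the minus strand, Ctsd at chr7:142387828-142388077 on the minus strand and Ctsa at chr2:164833523-164833772 on the plus strand. Ctsk, at chr3:95498960-95499209 on the plus strand, is shown as a called gene without the core. Ctsa is shown as a gene that holds the core and was not called.
Lgmn: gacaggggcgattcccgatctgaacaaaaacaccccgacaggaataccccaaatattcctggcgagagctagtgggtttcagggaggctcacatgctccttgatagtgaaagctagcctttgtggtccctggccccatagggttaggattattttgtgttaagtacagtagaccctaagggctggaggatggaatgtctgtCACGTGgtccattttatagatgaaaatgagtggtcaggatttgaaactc
Ctsl: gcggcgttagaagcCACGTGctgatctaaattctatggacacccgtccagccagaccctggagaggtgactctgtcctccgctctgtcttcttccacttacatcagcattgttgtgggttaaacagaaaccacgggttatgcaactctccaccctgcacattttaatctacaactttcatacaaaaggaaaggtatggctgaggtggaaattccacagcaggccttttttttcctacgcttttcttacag
Ctsd: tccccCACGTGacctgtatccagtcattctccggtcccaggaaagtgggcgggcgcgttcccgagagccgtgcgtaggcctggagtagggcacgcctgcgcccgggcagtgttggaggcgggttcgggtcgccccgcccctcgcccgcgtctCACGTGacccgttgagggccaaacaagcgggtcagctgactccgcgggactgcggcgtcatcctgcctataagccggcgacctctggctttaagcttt
Ctsa: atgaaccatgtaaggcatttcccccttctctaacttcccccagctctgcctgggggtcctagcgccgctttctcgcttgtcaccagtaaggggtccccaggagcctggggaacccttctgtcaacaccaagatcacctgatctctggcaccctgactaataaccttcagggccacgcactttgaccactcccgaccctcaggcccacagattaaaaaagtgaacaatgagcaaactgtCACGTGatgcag
Ctsk: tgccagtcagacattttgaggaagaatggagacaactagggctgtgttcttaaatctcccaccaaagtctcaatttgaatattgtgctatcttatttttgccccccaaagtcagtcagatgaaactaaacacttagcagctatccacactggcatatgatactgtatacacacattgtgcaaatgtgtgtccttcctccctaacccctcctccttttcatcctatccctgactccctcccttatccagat

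Counted from the start site, the core began at -49 in Lgmn, at -236 in Ctsl, at -245 and -98 in Ctsd and at -12 in Ctsa, where another copy lay at 6 downstream of the start. RefSeq windows of 250 bases before to 50 after a start were found for 8 of the 10 genes, all but Ctsb and Ctsh, and 4 of these 8 (Lgmn, Ctsl, Ctsd and Ctsa) held CACGTG in at least 1 window, beside 8.09% of 27025 genes and 7.15% of 32851 windows. Lgmn and Ctsa have 2 annotated starts each, and in both the other window did not hold the core. The longer form TCACGTG, searched on both strands and overlapping the first, was found for Lgmn, Ctsd and Ctsa and in 3.77% of all windows. Ctsl differed here, as its copy did not have that flanking base. The motif GAGGAAGT of the macrophage factor PU.1, searched on both strands, began at -151 in Ctsc and at -2, across the start, in Ctss, and was found in 3.2% of windows. The interferon-stimulated motif, GAAA and again GAAA with any 2 bases between them, searched on both strands, was present upstream of Ctss, at -21, and in 3.44% of windows. Each match is a run of letters and does not show that a factor was bound.

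Levels are given as log2 of the deposited linear intensity plus 16, and differences and folds are on that scale, which understates changes of dim genes. Since no label links an array to an animal, p-values set a difference only against the scatter among these arrays, part of which may be technical. In captured tissue, fewer cells of a type and less RNA per cell cannot be told apart. Levels of different genes come from different probes and are not compared.

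Lgmn encodes legumain, which cleaves after asparagine and also processes other cathepsins into their final form. Its levels on the 5 CHOW arrays were 8.04, 7.28, 6.89, 6.78 and 6.65. On the 2w-WD arrays they were 6.41, 5.56, 6.28, 5.05 and 5.42. On the 14w-WD arrays they were 8.42, 8.35, 8.25, 6.39 and 7.63. Every 2w-WD array was below every CHOW array, and 4 of 5 14w-WD arrays were above every 2w-WD array, the exception being 14w-WD replicate 4. Lgmn was higher in 14w-WD than in 2w-WD by a log2 of 2.06 (SE 0.39, adjusted p = 0.0113, limma). It was 1 of the 2 members that differed over the 3 groups in the moderated F test (adjusted p = 0.0328). The Lgmn probe set was dim, with deposited intensities of 69, 31, 62, 17 and 27 in 2w-WD, and 3 of those 5 lay below the filter intensity of 34.6.

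Ctsl encodes cathepsin L, a broad endopeptidase of the lysosome. Its level was 13.56, 13.52, 13.58, 13.52 and 13.48 on the CHOW arrays. The 2w-WD arrays gave 13.24, 13.10, 13.39, 12.63 and 13.34. The 14w-WD arrays gave 13.72, 13.76, 13.71, 13.64 and 13.61. The groups were fully separate: every 2w-WD array lay below every CHOW array, and every CHOW array lay below every 14w-WD array. Ctsl was higher in 14w-WD than in 2w-WD by 0.55 (SE 0.12, adjusted p = 0.0153, limma) and also passed the F test over the 3 groups (adjusted p = 0.0411). The 2 differences from CHOW, -0.39 and 0.16 (SE 0.12), did not pass after adjustment (adjusted p = 0.480 and 0.514, limma).

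Ctsk encodes cathepsin K, which degrades collagen and elastin and is best known from bone-resorbing osteoclasts. Its CHOW arrays had levels of 13.07, 12.62, 12.49, 12.63 and 12.85. Its 2w-WD arrays had 12.17, 11.90, 12.28, 10.40 and 12.68. Its 14w-WD arrays had 13.24, 12.94, 12.93, 12.79 and 12.92. All 5 of the 14w-WD arrays were above all 5 of the 2w-WD arrays, and 2w-WD replicate 4 stood far below the other 14 arrays. Ctsk was higher in 14w-WD than in 2w-WD by 1.08 (SE 0.30, adjusted p = 0.0323, limma), and by 0.71 without 2w-WD replicate 4, where the call remained.

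Ctsb encodes cathepsin B, an endopeptidase that also removes dipeptides from the carboxyl end of proteins. The CHOW levels of its brightest probe set were 14.19, 14.34, 14.31, 14.36 and 14.36. The 2w-WD levels were 14.17, 14.26, 14.23, 13.88 and 14.22. The 14w-WD levels were 14.44, 14.50, 14.50, 14.29 and 14.41. Every 14w-WD array was above every 2w-WD array, while 14w-WD and CHOW overlapped. Ctsb was higher in 14w-WD than in 2w-WD by 0.27 (SE 0.07, adjusted p = 0.0284, limma), close to the median change of 0.23 over all tested genes. These spots were near the top of the scale: their intensities reached 23105, and the brightest value on an array lay between 23187 and 30343. A compression of differences at that brightness was not tested, nor was it for Ctss, whose intensities reached 20133.

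Ctsd encodes cathepsin D, the aspartic protease of the lysosome. Its levels in CHOW were 13.93, 13.83, 13.78, 13.70 and 13.68. In 2w-WD they were 13.52, 13.21, 13.71, 12.74 and 13.44. In 14w-WD they were 13.94, 14.01, 13.95, 13.70 and 13.75. The 2 western diet groups overlapped by a single pair of arrays, 2w-WD replicate 3 and 14w-WD replicate 4. Ctsd was higher in 14w-WD than in 2w-WD by 0.55 (SE 0.14, adjusted p = 0.0251, limma).

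**Figure D1:**
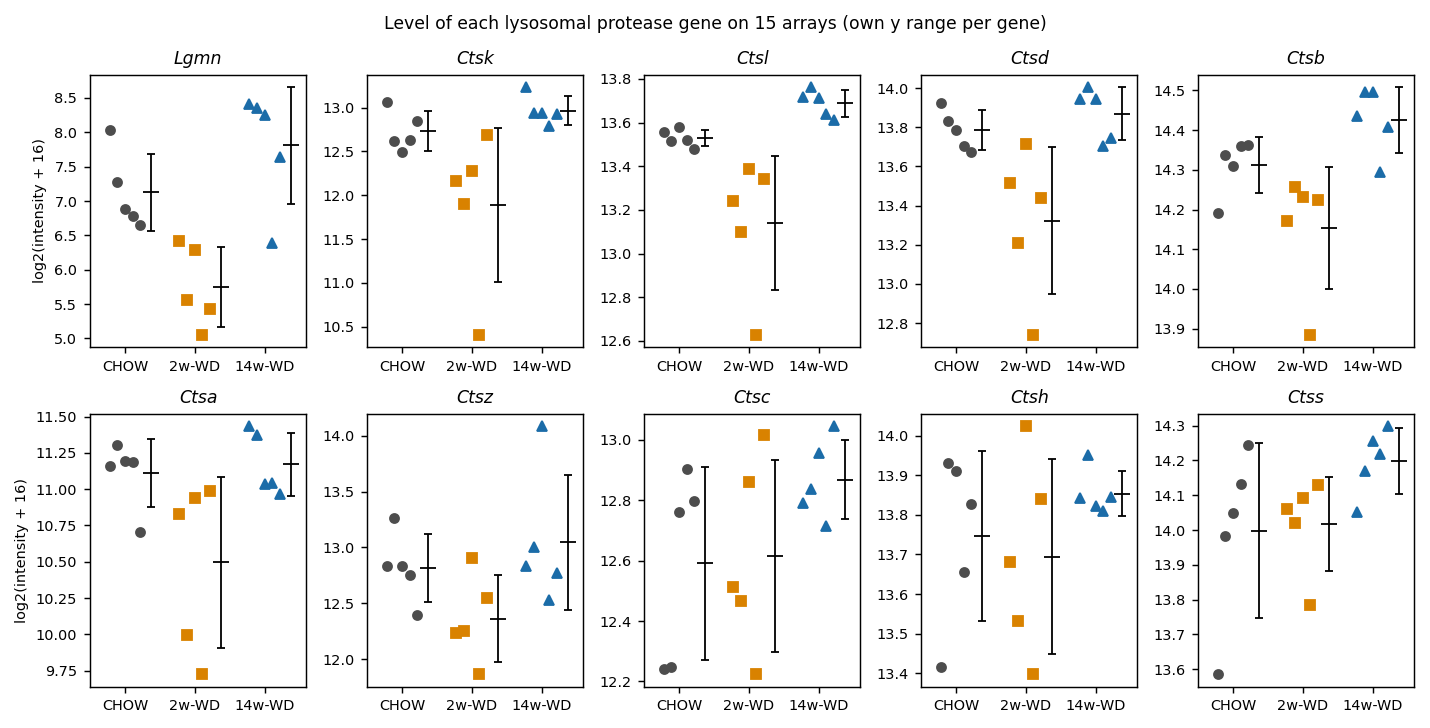
The level of each of the 10 genes, as log2(intensity + 16), on the 5 arrays of CHOW (circles), 2w-WD (squares) and 14w-WD (triangles), with the group mean and SD beside the points and an own y range per gene. The 2w-WD points of Lgmn and Ctsl lie wholly below CHOW, and 2w-WD replicate 4 is the lowest of 15 arrays for 9 of the 10 genes.

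The other 5 genes were not called in any comparison. Ctsa encodes cathepsin A, the carboxypeptidase that also protects neuraminidase and beta-galactosidase in the lysosome. Its CHOW mean was 11.11 ± 0.24 (SD, n = 5), its 2w-WD mean 10.50 ± 0.59 and its 14w-WD mean 11.17 ± 0.22. The 2w-WD arrays were split, with replicates 2 and 4, the lower of them at 9.72, below the other 3, which stood between 10.83 and 10.99. The 14w-WD versus 2w-WD difference of 0.67 (SE 0.27) had an adjusted p of 0.0969 in limma. Ctsz encodes cathepsin Z, a carboxypeptidase, and its means ran from 12.36 ± 0.39 (2w-WD) through 12.82 ± 0.31 (CHOW) to 13.04 ± 0.61 (14w-WD). A single array, 14w-WD replicate 3 at 14.09, was above all others, and the other 4 of that group lay between 12.53 and 13.00. The 14w-WD versus 2w-WD difference of Ctsz was 0.68 (SE 0.26, adjusted p = 0.0830, limma).

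Ctsc, Ctsh and Ctss had the smallest differences between the western diet groups. Ctsc encodes cathepsin C, which activates serine proteases of immune cells by removing dipeptides, and its CHOW, 2w-WD and 14w-WD means were 12.59 ± 0.32, 12.62 ± 0.32 and 12.87 ± 0.13. Ctsh encodes cathepsin H, an aminopeptidase, with means of 13.75 ± 0.22, 13.69 ± 0.25 and 13.85 ± 0.06. Ctss encodes cathepsin S, which cleaves the invariant chain of MHC class II and also elastin, with means of 14.00 ± 0.25, 14.02 ± 0.14 and 14.20 ± 0.10. The 14w-WD versus 2w-WD differences were 0.25 (SE 0.17) for Ctsc, 0.16 (SE 0.12) for Ctsh and 0.18 (SE 0.10) for Ctss, with adjusted p of 0.307, 0.347 and 0.231 in limma. In these 3 genes the lowest array of 2w-WD was again replicate 4, and the groups overlapped in every comparison.

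Against CHOW, the 2 weeks of western diet gave differences below 0 for 8 of the 10 genes, and 6 had an unadjusted p under 0.05 in the lower direction, beside 7.3% of all genes. None was called after adjustment (0% of all genes were called), and adjusted p ran from 0.480 to 0.967 in limma. The differences were -1.38 (SE 0.39) for Lgmn, -0.84 (SE 0.30) for Ctsk, -0.62 (SE 0.27) for Ctsa, -0.46 (SE 0.14) for Ctsd, -0.39 (SE 0.12) for Ctsl and -0.16 (SE 0.07) for Ctsb. Ctsz, at -0.46 (SE 0.26), and Ctsh, at -0.05 (SE 0.12), were also below 0, while Ctsc and Ctss both stood at 0.02. The median over the 10 genes was -0.42, beside -0.10 over all tested genes. Groups did not overlap for Lgmn and Ctsl, 2 of 10 genes, beside 0.83% of all genes in that direction. Without 2w-WD replicate 4 the differences of Lgmn, Ctsk and Ctsa were -1.21, -0.47 and -0.42.

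The 14 weeks of western diet gave means above CHOW for all 10 genes, as for 65.6% of all genes, and none was called (0.00839% of all genes were called). The largest difference was 0.68 (SE 0.39) for Lgmn, followed by 0.28 (SE 0.17) for Ctsc, and the smallest was 0.06 (SE 0.27) for Ctsa. Adjusted p ran from 0.355 to 0.924 in limma. The median of 0.18 was close to the median of 0.16 over all tested genes. By the brightest probe sets, only Ctsl had groups that did not overlap, 1 of 10 genes beside 3.09% of all genes. With the share of bright probe sets as a covariate, described with the array brightness, Lgmn turned to -0.015 and Ctsk from 0.23 to -0.11. Quantile normalization turned Ctsa to -0.068, and leaving out 14w-WD replicate 3 turned Ctsz to -0.033. With arrays weighted by their quality, 1 of the 10 genes, Lgmn, passed in this comparison (adjusted p = 0.0324, limma), beside 18.7% of all genes.

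**Figure D2:**
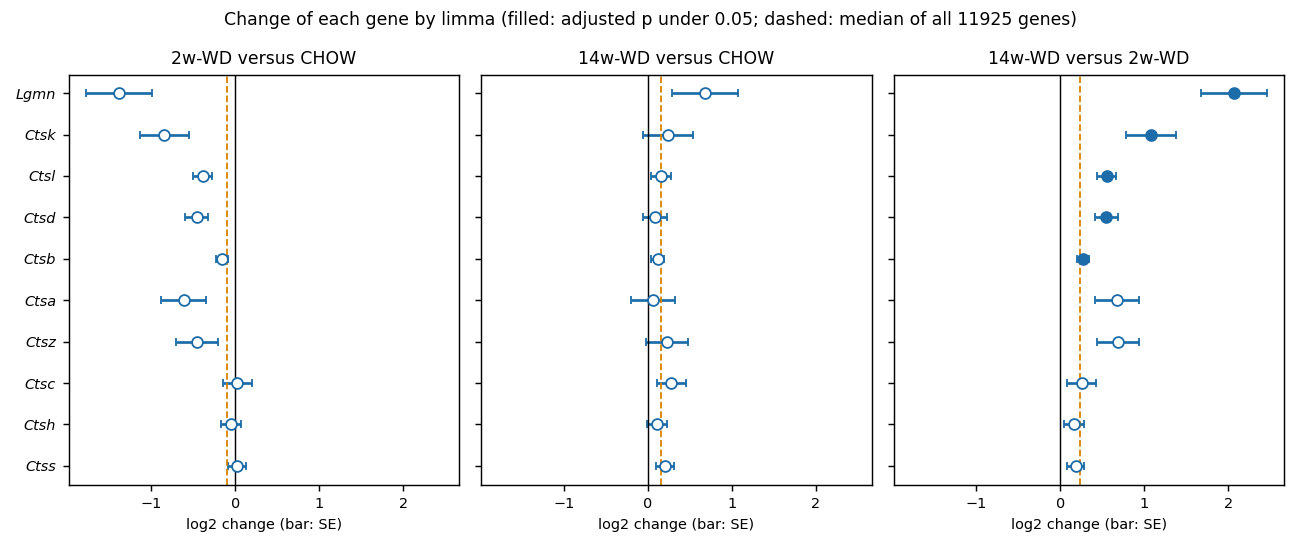
The log2 change of each gene in the 3 pairwise comparisons, with bars of 1 SE. Filled points passed an adjusted p of 0.05 in limma, and the dashed line is the median of all 11925 genes, at -0.10, 0.16 and 0.23. Filled points appear only for Lgmn, Ctsk, Ctsl, Ctsd and Ctsb in 14w-WD versus 2w-WD.

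In the comparison of the western diet groups, 5 of the 10 genes were called, beside 11.2% of all genes in either direction, and groups did not overlap for 3 (Ctsb, Ctsk and Ctsl), beside 7.06% of all genes in the higher direction. The median change was 0.55, beside 0.23 over all tested genes. Of all genes called, 1201 were higher and 137 lower. Quantile normalization, which moved the all-gene median to 0.00709 and the split to 640 higher and 288 lower, called the same 5 members, with a member median of 0.44. Median centring, with 975 higher and 191 lower, called 4 of them, without Ctsb. In the F test over the 3 groups, 2 of 10 genes passed, beside 2.62% of all genes. Both comparisons that involve 2w-WD use the same 5 arrays, so the lower values against CHOW and the higher values in 14w-WD are not separate observations.

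Leaving out arrays singly changed the calls. Lgmn and Ctsl were called in each of the 15 omissions, with changes of 1.89 to 2.42 and 0.42 to 0.61. Ctsk and Ctsd lost their calls without 2w-WD replicate 2 or without 14w-WD replicate 1, 2 or 3, and Ctsk also without 14w-WD replicate 5. Ctsb lost its call without any 1 of these arrays and without 2w-WD replicate 4. Ctsz gained a call without 14w-WD replicate 4, and Ctsa without 2w-WD replicate 1. The number of members called was 2 without 2w-WD replicate 2 or 14w-WD replicate 1, 2 or 3, and 3 without 14w-WD replicate 5. The share of all genes called in these fits was 2.18%, 1.38%, 5.27%, 1.88% and 4.76% in that order, against 11.2% with all arrays. The number of all genes called moved as well, from 1338 with all arrays to 164 without 14w-WD replicate 1 and 3536 without 2w-WD replicate 1.

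**Figure D3:**
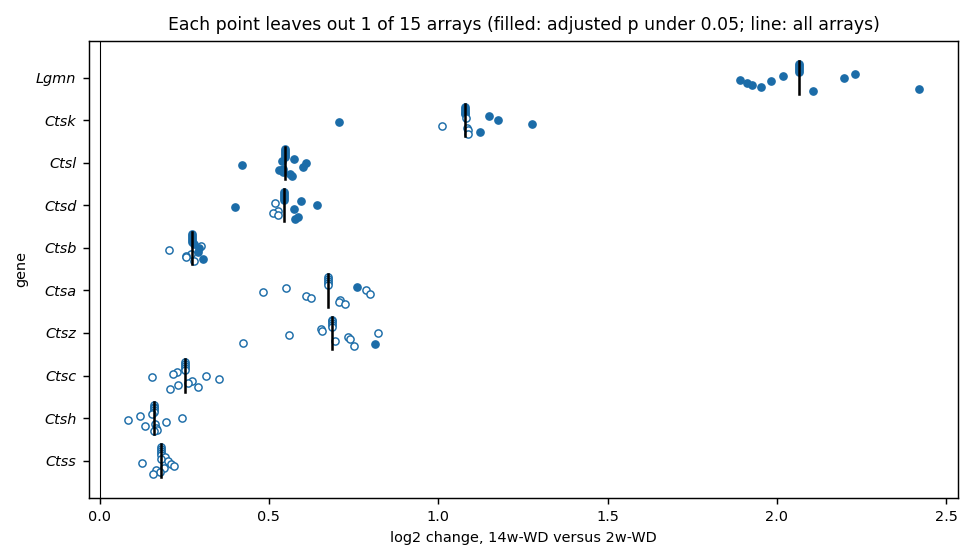
The log2 change of each gene in 14w-WD versus 2w-WD when 1 of the 15 arrays was left out, 1 point per omission, with a line at the value from all arrays. Points filled for an adjusted p under 0.05 in limma run from 1.89 to 2.42 for Lgmn and from 0.42 to 0.61 for Ctsl, and no point lies below 0.

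The lowest values of most of these genes fell on the same array. The mean deviation of the 10 genes from their own means was -0.93 on 2w-WD replicate 4, the lowest of the 15. It was between -0.47 and -0.03 on the other 2w-WD arrays, between -0.0046 and 0.13 on CHOW and between 0.01 and 0.45 on 14w-WD. On 2w-WD replicate 4, 9 of the 10 genes had their lowest level of all 15 arrays, beside 25.9% of all genes. The exception was Ctss, whose lowest level was on CHOW replicate 1. That 2w-WD array also had the lowest mean intensity, 274, and the fewest probe sets brighter than 100, 18.2% of all. In 14w-WD, replicate 4 was the lowest array for 7 of the 10 genes, a count whose counterpart over all genes was not computed. That array also had the lowest share of bright probe sets of its group, 22.5%.

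The spread within groups was widest in 2w-WD: its SD exceeded that of 14w-WD for 8 of the 10 genes, beside 77.9% of all genes, and that of CHOW for 8, beside 60.7%. The median SD of the 10 genes was 0.23, 0.35 and 0.13 for CHOW, 2w-WD and 14w-WD, beside 0.43, 0.51 and 0.32 over all tested genes. Group means ran in the order 2w-WD, CHOW, 14w-WD for 8 of the 10 genes, beside 41% of all genes. The exceptions were Ctsc and Ctss, in which CHOW was lowest.

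**Figure D4:**
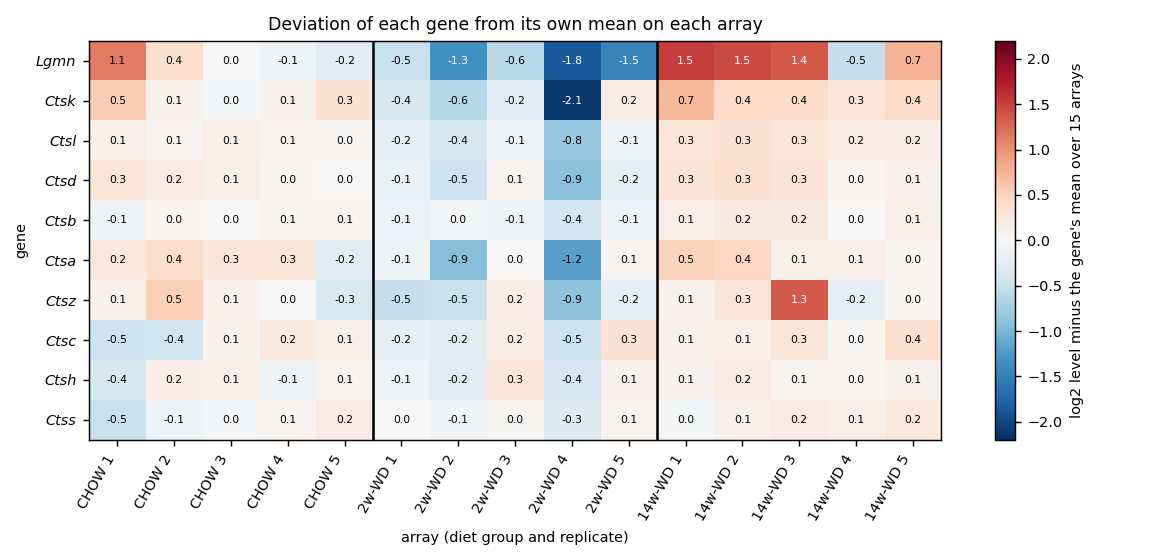
The deviation of each gene from its own mean over the 15 arrays, in log2, by array (columns, grouped by diet) and gene (rows). The column of 2w-WD replicate 4 is below 0 for all 10 genes, and the 14w-WD columns are mostly above 0. The column of 14w-WD replicate 4 runs from -0.50 to 0.26, with a mean of 0.01.

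Array brightness and the macrophage markers were read beside these genes. Between 20.4% and 24.7% of probe sets exceeded an intensity of 100 on the CHOW arrays, between 18.2% and 25.7% on 2w-WD and between 22.5% and 27.2% on 14w-WD. The 25.7% was on 2w-WD replicate 1, where the mean deviation of the 10 genes was -0.22. On that array Lgmn stood at 6.41, the highest level of its group. With the share of bright probe sets as a covariate, 0 of the 10 genes and 0% of all genes were called in 14w-WD versus 2w-WD. The changes were then 1.18 for Lgmn, 0.65 for Ctsk and 0.42 for Ctsl. The mean of the 10 measured macrophage markers was 11.09 ± 0.25 (SD, n = 5) for 2w-WD, below 11.41 ± 0.23 for CHOW and 11.53 ± 0.18 for 14w-WD. It includes Itgam, which was below the filter. With the mean of only the 9 tested markers as a covariate, again 0 of the 10 genes and 0% of all genes were called. The changes were then 1.09 for Lgmn, 0.43 for Ctsk and 0.30 for Ctsl. The part of either in the differences was not tested beyond these fits.

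Within the macrophage list, 2 of 9 tested markers were called higher in 14w-WD than in 2w-WD, beside 10.1% of all genes. They were Aif1, by 1.82, and Tyrobp, by 0.38. These 2 genes, and the 3 fibroblast genes named next, were named after their values were seen. The receptors Adgre1 and Csf1r differed by 0.14 and -0.04, and Cd68, a lysosomal membrane protein, by 0.69 (adjusted p = 0.156, limma). Itgam, the remaining macrophage marker, was below the filter. The foam cell markers had means of 12.08 ± 0.09, 11.82 ± 0.36 and 12.27 ± 0.09 in CHOW, 2w-WD and 14w-WD.

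Markers of other tissue were present in all groups. The 12 heart muscle genes had a mean level of 9.69 ± 1.80 in CHOW, with arrays from 6.69 to 11.22, of 10.99 ± 1.17 in 2w-WD (10.01 to 12.54) and of 10.29 ± 0.88 in 14w-WD (9.24 to 11.59), and 0 of 12 were called in any comparison. Myh6, the heart myosin heavy chain, stood at 9.98 on CHOW replicate 4 and at 13.43 or above on every other array. When the heart muscle mean entered the fit as a covariate, 5 members were called in 14w-WD versus 2w-WD, beside 11.1% of all genes, and Lgmn changed by 2.14. The 8 fibroblast genes had means of 10.24 ± 0.36, 9.77 ± 0.43 and 10.79 ± 0.35. Of these, 3 of 8, Pdgfra, Fbln1 and Col1a1, were called higher in 14w-WD than in 2w-WD, beside 10.1% of all genes. Fibroblasts can express Ctsk, and the part of their RNA in its difference was not tested. The smooth muscle mean was 7.02 ± 0.46, 6.63 ± 0.34 and 6.96 ± 0.25, although Acta2 itself was at 12.33 or above on every array. Among 8 endothelial markers, Vwf had means of 12.24 ± 0.44, 11.88 ± 0.49 and 11.73 ± 0.83 in CHOW, 2w-WD and 14w-WD, Cdh5, Emcn and Cldn5 passed the filter at low levels, and Pecam1, Kdr, Tek and Tie1 were below it. Vwf was named after its values were seen.

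Other probe sets of the same genes gave a second reading. The 10 genes had 21 probe sets, of which 20 passed the filter, and 11 were not the brightest of their gene. In a fit over 22519 probe sets, 8 of the 10 tested further probe sets changed above 0 in 14w-WD versus 2w-WD and 2 were called higher, beside 11.2% called in either direction in that fit. These were a dim probe set of Ctsl, by 1.22 (adjusted p = 0.0127, limma), and a dim probe set of Ctsz, by 1.79 (adjusted p = 0.0226, limma). The remaining probe set of Ctsz differed by 1.64 without passing. For Ctsb the 5 probe sets gave 0.27, 0.09, 1.53, 1.67 and 0.95, and only the brightest passed. The further probe sets of Ctsa and Ctsc gave -0.16 and -0.11, and that of Ctsh gave 0.38. No tested probe set of these genes was called against CHOW. A dim probe set of Ctsb was higher in 14w-WD than in CHOW by 1.02 (SE 0.30, adjusted p = 0.137, limma), without overlap. The dim probe set of Ctsl was higher there by 0.54 (SE 0.24), also without overlap. In 2w-WD versus CHOW the further probe set of Ctsh gave -0.37 (SE 0.15, adjusted p = 0.513, limma). The probe sets that represent Ctsz and Ctsh are of types that the array design marks as able to bind related transcripts.

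**Figure D5:**
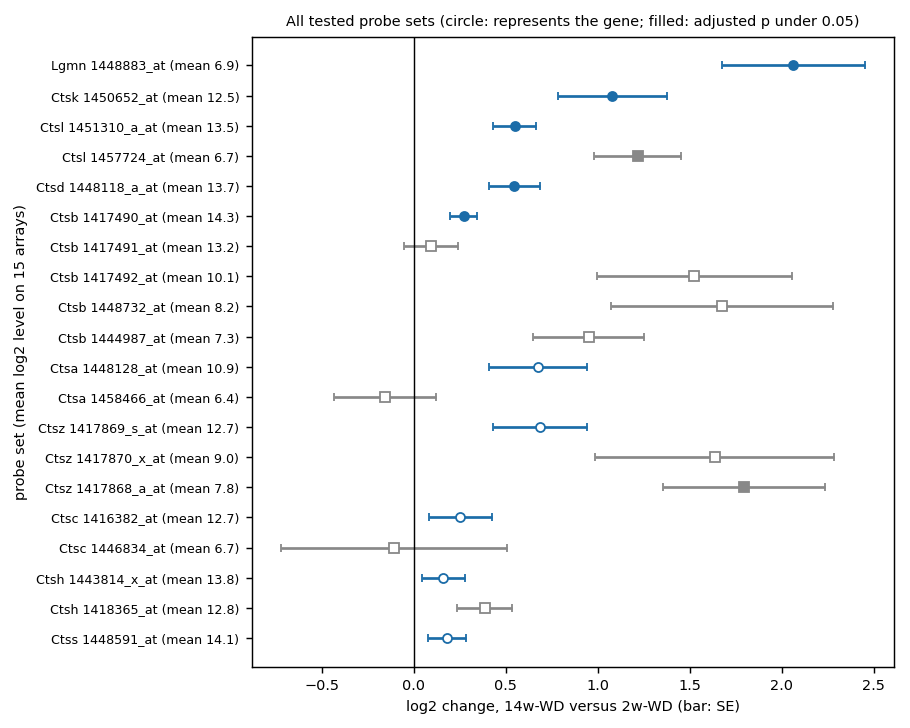
The log2 change in 14w-WD versus 2w-WD for each of the 20 tested probe sets of the 10 genes, with bars of 1 SE and the mean log2 level of the probe set in its label. Circles are the probe sets that represent a gene, squares the others, and filled marks passed an adjusted p of 0.05. The squares of Ctsb, Ctsz and Ctsl spread to larger changes than the circles of these genes.

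Genes that serve the cathepsins were read from 6 lists with 44 genes, of which 39 had a probe set and 31 passed the filter. In 14w-WD versus 2w-WD, 4 of the 31 were called higher and 0 lower, beside 10.1% and 1.15% of all genes, and the median change of 0.24 was close to the 0.23 of all tested genes. Against CHOW none was called after either diet. The called genes were Gnptab, Dpp7, Cst3 and Psap, and leaving out single arrays moved their number from 0 (without 2w-WD replicate 4 or 14w-WD replicate 1 or 3) to 7 (without 2w-WD replicate 1 or 14w-WD replicate 4). It was 1 without 2w-WD replicate 2 or 14w-WD replicate 2 or 5. The share of all genes called moved too, from 1.38% without 14w-WD replicate 1 to 29.7% without 2w-WD replicate 1.

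Among the genes for sorting, 1 of 9 tested was called. Gnptab encodes subunits of the enzyme that starts the mannose 6-phosphate tag on lysosomal enzymes. Its levels were 6.94, 6.70, 5.46, 5.80 and 5.91 on the 2w-WD arrays and 8.32, 7.77, 8.04, 6.79 and 7.40 on the 14w-WD arrays, with a CHOW mean of 6.94 ± 0.48. Only 14w-WD replicate 4 fell within the range of 2w-WD. Gnptab was higher in 14w-WD by 1.50 (SE 0.34, adjusted p = 0.0181, limma), a fold of 2.84.

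Cst3 encodes cystatin C, the secreted inhibitor of cysteine cathepsins, and was the 1 gene called among 6 tested inhibitors. Its levels were 12.25, 11.76, 12.43, 11.04 and 12.33 on the 2w-WD arrays and 13.02, 13.04, 12.78, 12.34 and 12.69 on the 14w-WD arrays. Cst3 was higher in 14w-WD by 0.81 (SE 0.23, adjusted p = 0.0350, limma), and by 0.58, without the call, when 2w-WD replicate 4 was left out.

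Dpp7 encodes a lysosomal dipeptidyl peptidase and was the 1 gene called among 8 other lysosomal proteases, whose median change was -0.08. Its levels were 9.17, 8.17, 8.94, 7.45 and 8.56 on the 2w-WD arrays and 9.79, 9.93, 9.65, 9.46 and 9.78 on the 14w-WD arrays, which did not overlap. Dpp7 was higher in 14w-WD by 1.26 (SE 0.34, adjusted p = 0.0288, limma). Psap encodes prosaposin, the precursor of the saposins that help lipid-degrading enzymes, and was the 1 called of 2 tested partner genes. It was higher by 0.29 (SE 0.09, adjusted p = 0.0421, limma), from 13.82 ± 0.20 to 14.11 ± 0.10, with no overlap.

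None of 3 tested genes of class II antigen processing was called. Cd74, the invariant chain that cathepsin S cleaves, had means of 8.20 ± 0.88, 7.37 ± 0.81 and 8.34 ± 0.91 on CHOW, 2w-WD and 14w-WD arrays, and H2-DMa, which loads peptides onto class II molecules, had 9.04 ± 1.46, 8.78 ± 0.75 and 9.48 ± 0.82. None of 3 tested genes of the TFEB family was called. Mitf, a family member, had means of 8.28 ± 0.69, 7.94 ± 0.80 and 8.96 ± 0.37 and differed between the western diet groups by 1.02 (SE 0.40, adjusted p = 0.0978, limma). Tfe3, another member, had 10.57 ± 0.51, 9.75 ± 0.77 and 10.34 ± 0.24 and differed by 0.59 (SE 0.35, adjusted p = 0.254, limma). Tfec, the remaining member, was below the filter and not tested, with means of 4.58 ± 0.13, 4.36 ± 0.21 and 5.26 ± 0.35. Tfec was named after its values were seen.

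The genes most like the cathepsin group were found by the root-mean-square difference between a gene's centred profile and the mean centred profile of the 10 genes over the 15 arrays. The 5 closest were Tmsb4x, at 0.0967, Clta, at 0.108, Vat1, at 0.114, Anxa4, at 0.126, and Tram1, at 0.127, beside a median of 0.545 over all tested genes. All 5 had their lowest group mean in 2w-WD and their highest in 14w-WD. The profile that chose them runs in that order too, so the choice largely fixed this and it is not a separate observation. Tmsb4x encodes thymosin beta 4, which binds actin, Clta a clathrin light chain and Anxa4 a calcium-dependent membrane-binding protein. None of the 5 is a lysosomal protease, and the profile that chose them includes the low values on 2w-WD replicate 4.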

How the data were processed

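The 15 arrays hold amplified, biotin-labelled RNA of laser-captured foam cells, per the labels' protocols. The authors deposited 1 linear intensity per probe set and array for 45037 probe sets; their summarisation and normalization are not given in the sources used here, and no batch is named in the labels. Array medians lay between 31.7 and 38.2, and the number of arrays limits the precision. GEO's array annotation gave 34945 probe sets 1 gene, 932 several and 9160 none. Values were taken as log2(intensity + 16). Dim genes, with a mean under log2 5.66, the median over probe sets, were left out. limma 3.58.1 in R 4.3.3 (intensity trend, 3 pairwise contrasts and an F test, two-sided) was fitted on all 15 arrays, with Benjamini-Hochberg adjustment over 11925 genes.

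The members and lists were chosen with earlier results of these data known. Named were the 10 members, the companion genes called in a pairwise contrast, or, in a list without one, the 2 with the lowest F test p, the 5 genes most alike in profile, and 4 markers by level (Adgre1, Cd68, Myh6 and Acta2). All 10 members matched RefSeq by gene number. Groups and replicate numbers came from the sample titles. On simulated data for 14w-WD versus 2w-WD with 11925 genes, limma recovered 24.5% of 200 genes changed by a log2 of 1 and 84% of 200 changed by a log2 of 2. Of the calls, 3.92% and 6.15% were false. The simulated noise was independent between genes and had the same SD in every group. On the arrays the SD in 2w-WD exceeded that in 14w-WD for 77.9% of genes, so these shares may not hold there. Alternatives covered normalization, pseudocount, filter, probe set choice, array weights, trend, replicate block, groups in the fit and each array left out; covariate fits and the omission of both arrays numbered 4 were added after seeing the data. No table of protein sequences was used here.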

Additional observations from a re-analysis of the deposited data

Results flagged for a closer look

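Of the 30 groups of 5 arrays (10 genes in 3 diets), 3 held an array far from the others, by Dixon's criterion with a critical value of 0.71 for the gap over the range; chance flags about 1 in 20 groups. Ctsb in 2w-WD was lowest on replicate 4, at 13.88, where the next array stood at 14.17, and this is the array on which 9 of the 10 genes had their lowest level. Ctsa in CHOW was lowest on replicate 5, at 10.70, with the next array at 11.16. Ctsh in 14w-WD was highest on replicate 2, at 13.95, with the next at 13.84, a small gap in a narrow group.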

How the results depend on the processing

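Over the 10 genes and 3 comparisons, 842 of 900 alternative values kept direction and side of the threshold. Another 29 lost and 5 gained a call, and 24 changed sign, none of these in a called difference. Only the 5 called differences could lose a call, so the share over all 900 overstates their stability. Of 30 alternatives each, Ctsb lost its call in 11, Ctsd and Ctsk in 7, and Ctsl and Lgmn in 2. In 14w-WD versus 2w-WD the count of members called was 5 (11.2% of all genes), and it was 3 without an intensity trend (10.7%). It was 0 with the bright share and 0 with the macrophage mean as covariate (0% of all genes, both chosen after seeing the data). With single arrays left out it was 2 to 6 (1.38% to 29.7% of all genes). With array weights, 14w-WD versus CHOW had 1 of 10 members and 6 of 31 companion genes called, beside 18.7% of all genes. In 14w-WD versus 2w-WD, companion genes called were 2 with quantile normalization (7.78% of all genes), 10 with array weights (32.2%), 0 with the bright share or macrophage covariate (0%) and 0 to 7 with single arrays left out. The F test over 3 groups called 2 members. It called 1 with quantile normalization, median centring, no filter, no intensity trend or the heart muscle covariate, 5 with array weights (30.2% of all genes, against 2.62% without weights), 0 with the bright share or macrophage covariate, and 0 to 4 with single arrays left out, with 4 both without 2w-WD replicate 1 (18.9% of all genes) and without CHOW replicate 1 (7.46%). Causes were not tested.

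Signs changed under these settings. In 2w-WD versus CHOW, Ctsc was -0.12 with the mean of its probe sets and -0.075 to 0.12 with arrays left out, Ctsh was 0.075 with the macrophage covariate, 0.021 without both arrays numbered 4 and -0.14 to 0.021 with single arrays left out, and Ctss was -0.0050 with the macrophage covariate and -0.085 to 0.080 with arrays left out. In 14w-WD versus CHOW, Ctsa was -0.068 with quantile normalization, -0.10 with the mean of its probe sets, -0.16 with the bright share, -0.11 with the macrophage mean and -0.043 to 0.11 with arrays left out. Ctsc was -0.099 with the mean of its probe sets. With the bright share, Ctsd was -0.091, Ctsk -0.11, Lgmn -0.015 (from 0.68) and Psap -0.062. With the macrophage mean, Ctsd was -0.023 and Psap -0.00404. Ctsz was -0.033 to 0.36 with arrays left out. In 14w-WD versus 2w-WD, Ctsh was -0.020 with the macrophage mean. Scaling moved the median of all genes in that comparison from 0.23 to 0.00709 with quantile normalization and 0.16 with median centring, and 5 and 4 members were called.

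Replicate numbers were not taken to pair the samples, because not every same-numbered pair deviated together (r from -0.17 to 0.48). As a hint from the data, the closest array of another group had the same number in 12 of 30 cases, where 6 would be reached by chance. With the number as a replicate block, 6 members were called in 14w-WD versus 2w-WD, with Ctsz added (adjusted p = 0.0366, limma), 0 in both comparisons with CHOW, and 4 in the F test, and 2122 genes (17.8%) were called in 14w-WD versus 2w-WD, against 1338 without the block. Companion genes counted 6. Brightness limits Lgmn, which was near the filter level in 2w-WD, and Ctsb and Ctss, which were near the top of the intensity range.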
